A study of Danio rerio with 61 samples.

Results

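The shift in ventricular gene expression between 1 and 7 days post cryo-injury (dpci) was followed in 5 zebrafish strains jointly. Its libraries were those whose title names the strain AB, KCL, SAT, TL or WIK and the stage 1 or 7 dpci, which gave 14 libraries at 1 dpci and 15 at 7 dpci, 29 of the 61 libraries in the series. The question was which of the early changes resolved by 7 dpci and which genes rose anew.

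Adult wild-type zebrafish had the tip of the ventricle frozen with a cold copper probe, and the RNA of each whole ventricle was sequenced as 1 library. Each strain had 3 fish per stage, except SAT with 2 fish at 1 dpci, and the 15 uninjured ventricles of the same strains served as the reference for the level before injury. AB, SAT (Sanger AB Tübingen), TL (Tupfel long fin) and WIK (Wild India Kolkata) are laboratory strains and KCL came from King's College London and was bred for generations in the study's own facility. None of these groups carries a transgene or received a drug, and fish of both sexes were used, although the sources used here do not give the sex of each fish.

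After a cryo-injury the dead muscle of the zebrafish ventricle is first invaded by phagocytes, then filled by fibroblasts and matrix, and finally replaced by muscle from cardiomyocytes that divide at the border of the wound. Cells under stress raise the chaperones of the endoplasmic reticulum (ER), and cells that grow raise the factors that build ribosomes. Since a whole ventricle was sequenced, fewer cells of a type and less RNA per cell cannot be told apart.

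The 14 libraries at 1 dpci held 2943684 to 5538019 counts and the 15 at 7 dpci 3012597 to 4376237. Mitochondrially encoded RNA took 46.1% to 67.6% of the counts at 1 dpci (median 59.7%), a median of 66.8% at 7 dpci and 64% to 77.7% in uninjured ventricles (median 71%), so this share moved with the stage. Its part in the results was not tested, although leaving these genes out of the normalisation kept every count of called genes in the 3 comparisons of stages within 1.5 times. The time label and the title disagreed for 4 of the 44 libraries, 3 of them at 1 or 7 dpci, and the title was used. By the correlation of their deviations over 3480 genes, all 3 lay nearer to the stage in the title, as did 28 of the 29 libraries, and 29 of 29 lay nearest to their own strain at the other stage. The exception was WIK at 7 dpci replicate 60, which lay nearer to 1 dpci. The 13 cardiomyocyte markers tested were detected in every library, with a summed median of 19100 CPM (normalised counts per 1e+06) at 1 dpci and 24400 CPM at 7 dpci.

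At 7 dpci 501 genes were higher and 681 were lower than at 1 dpci, 3.06% and 4.16% of the 16356 genes tested. A gene was called when it changed more than 2-fold with an adjusted p below 0.05 in edgeR's quasi-likelihood test with strain as a block. The estimate had the same sign in all 5 strains for 360 of the 501 genes and for 576 of the 681. Without the library nearest to the other stage (WIK at 7 dpci replicate 60) 524 genes were higher and 781 lower. When 1 factor of unwanted variation estimated from low-variance genes was added, only 69 genes were higher and 15 lower, and 82.1% of the called genes were higher instead of 42.4%. That factor ran from 0.0873 to 0.318 at 1 dpci and from -0.126 to 0.0637 at 7 dpci without overlap, and 80.9% of its variance lay between stages, so the factor and the stage cannot be told apart.

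Against uninjured ventricles, 1447 genes (8.85%) were higher and 447 (2.73%) lower at 1 dpci, while 497 (3.04%) were higher and 22 (0.135%) lower at 7 dpci. Each of these comparisons shares libraries with the shift from 1 to 7 dpci, and their values are set side by side as a description. Of the 1447 early rises, 815 (56.3%) were back at the uninjured level by 7 dpci, meaning within 2-fold with an adjusted p of 0.05 or more, and 262 (18.1%) were still called higher. Of the 447 early falls, 341 (76.3%) were back and 11 (2.46%) were still called lower. To be back did not require a called change from 1 to 7 dpci. Between these stages 911 of the 1447 early rises and 297 of the 447 early falls were not called. The median log2 fold change of the early rises went from 1.83 at 1 dpci to 0.79 at 7 dpci, and that of the early falls from -1.38 to -0.42.

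**Figure D1:**
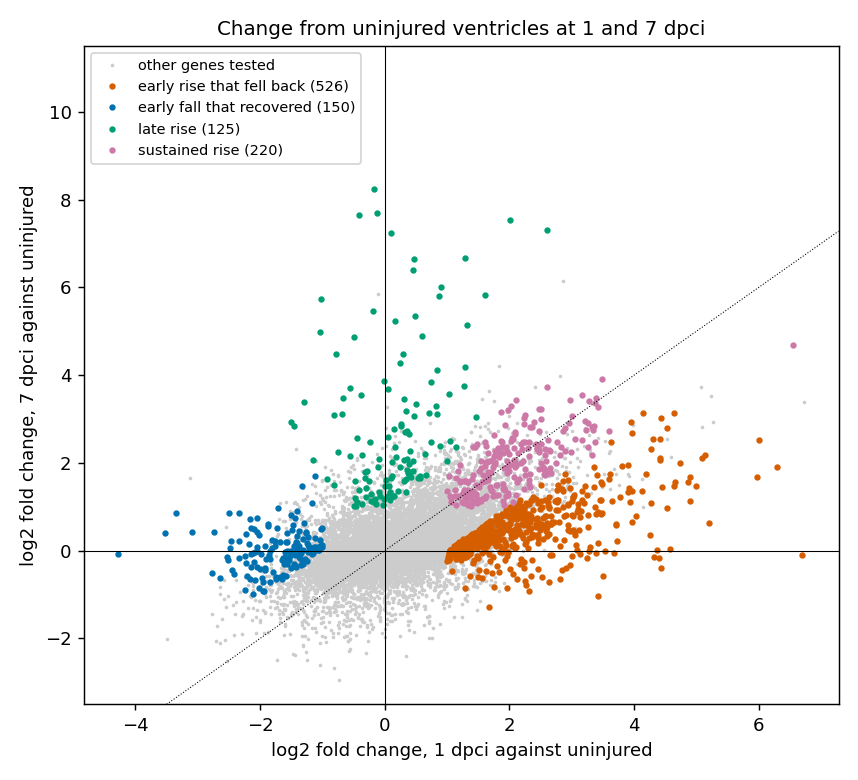
Each point is 1 of the genes tested, with its log2 fold change at 1 dpci against uninjured on the x axis and at 7 dpci against uninjured on the y axis, and the dotted line marks equal change. The 526 early rises that fell back lie below the dotted line at the right, the 150 early falls that recovered above it at the left, the 125 late rises above 0 near the middle and the 220 sustained rises along the line.

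The genes fell into 4 main classes by these calls, and the calls themselves define each class. An early rise that fell back was called higher at 1 dpci than in uninjured ventricles and lower at 7 than at 1 dpci, which held for 526 genes. Of these, 425 were back at the uninjured level, 163 had a 95% interval for 7 dpci against uninjured that lay within 2-fold, and 32 were still called higher. An early fall that recovered was the mirror image and held for 150 genes, of which 142 were back, 70 had an interval within 2-fold and 3 were called higher than uninjured. A late rise was called higher at 7 dpci than at both other stages and was not higher at 1 dpci than uninjured at an adjusted p below 0.05, whatever the fold, which held for 125 genes. Genes entered with 1 CPM in 1 library, and with a filter of 1 CPM in at least 14 libraries only 76 genes were late rises. A sustained rise was called at both stages after injury and not between them, which held for 220 genes. Its mirror image, a sustained fall, held for 11 genes, and only 2 genes were late falls, zdhhc12a and pcdh1g32. The 2 late falls were near the detection limit, with a median of 0 CPM at 7 dpci. A further 226 genes higher and 153 lower at 7 than at 1 dpci met none of these definitions. Of the 226, 17 were still called higher at 7 dpci than in uninjured ventricles, such as col1a2, which was already higher at 1 dpci at an adjusted p below 0.05.

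Among called genes with a mean of at least 10 CPM at 1 dpci and the same sign in 5 strains, the 10 deepest falls were 2 non-coding RNAs and genes of secreted peptides, transport and immune cells. BX649485.4 (ENSDARG00000095820) and BX649485.2 (ENSDARG00000095801) are long intergenic RNAs annotated on opposite strands of chromosome 22 of GRCz11, at 11097512 to 11098318 and 11090338 to 11091099. BX649485.4 ran from 5.62 to 436 CPM at 1 dpci (median 43.7) and from 0 to 12.8 CPM at 7 dpci (median 1.62), a log2 fold change of -4.39 ± 0.45 (SE). BX649485.2 fell by 4.29 ± 0.39 on the log2 scale. Both were below 5 CPM in all uninjured ventricles, and neither was called at 7 dpci against them.

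The gene adam8a (ENSDARG00000001452; chromosome 13, 24671481 to 24679636), a membrane metalloprotease of leukocytes, was at 35.07 to 231 CPM at 1 dpci (median 63.1) and at 3.78 to 17.3 CPM at 7 dpci (median 7.97). Every 1 dpci library lay above every 7 dpci library. The fall was 8.56-fold (log2 fold change -3.10 ± 0.32, adjusted p = 3.32e-10 in edgeR's quasi-likelihood test), and adam8a was still called higher at 7 dpci than in uninjured ventricles (median 1.42 CPM). The natriuretic peptide gene nppal went from 7.91 to 138 CPM at 1 dpci (median 26.5) to 0.471 to 13.8 CPM at 7 dpci (median 2.05), and the ranges overlapped at their edge. The other deep falls were the glucagon gene gcga (log2 fold change -4.09), the amino acid transporter slc43a2b (-3.56), the relaxin gene rln3a (-3.42), the cobalamin-binding gene tcnbb (-3.30), the galectin-like lgals9l1 (-3.20) and the chemokine ccl34a.4 (-3.16). All 10 of these genes were early rises that fell back.

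**Figure D2:**
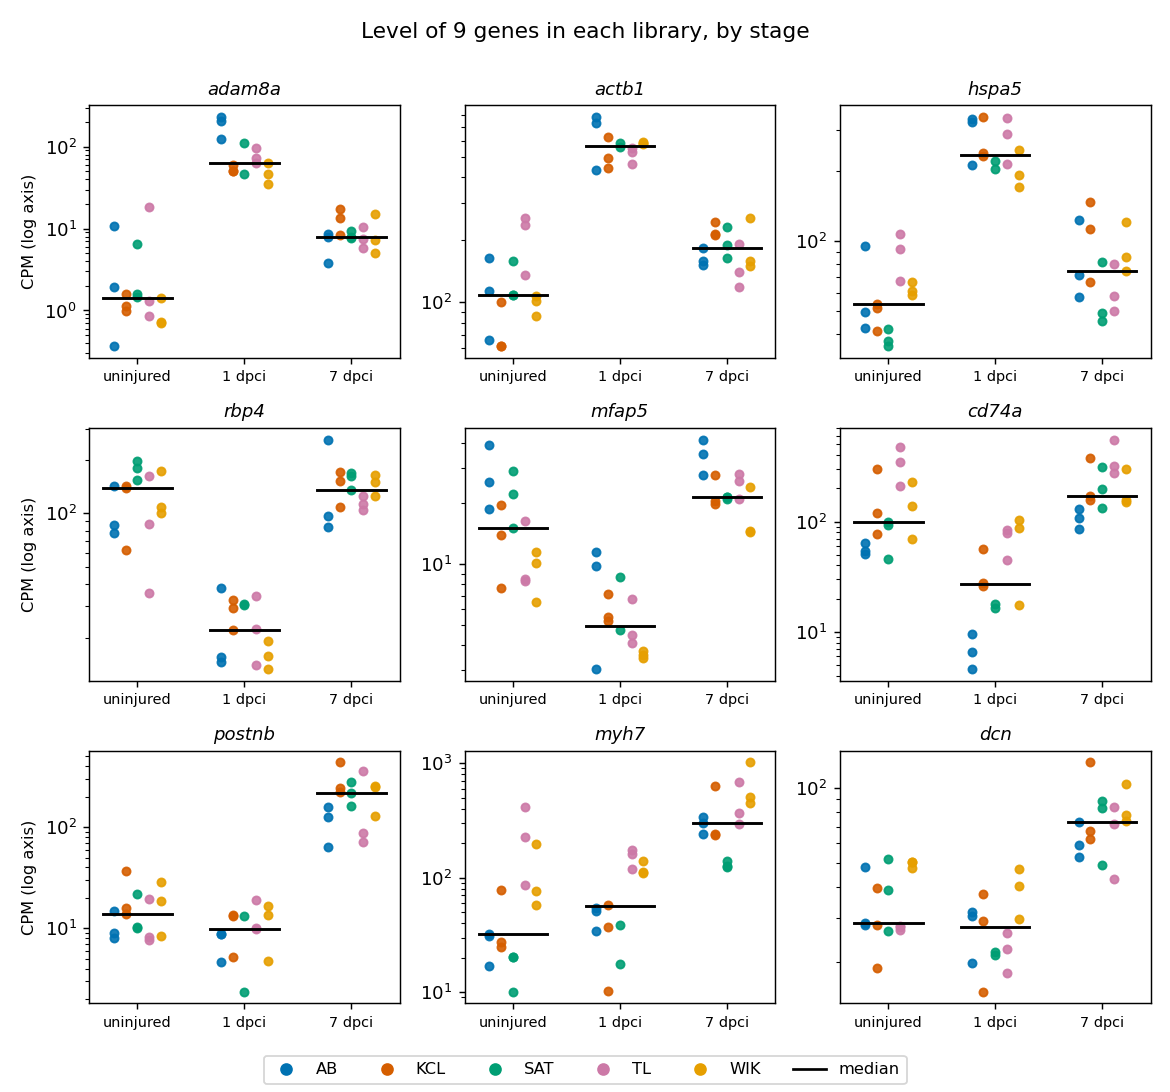
Each point is 1 ventricle, coloured by strain, with its TMM-normalised CPM on a log axis, and the bar is the median of the stage. In the upper row adam8a, actb1 and hspa5 peaked at 1 dpci, in the middle row rbp4 and mfap5 dipped at 1 dpci and cd74a dipped with overlapping groups, and in the lower row postnb, myh7 and dcn rose at 7 dpci.

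ER chaperones had the lowest median of all gene lists. Of 23 tested genes of ER folding and the unfolded protein response, 12 fell and 0 rose from 1 to 7 dpci, and the median log2 fold change of the list was -1.21 beside -0.01 over all genes tested. The same list had 12 genes higher at 1 dpci than in uninjured ventricles (median 1.29) and 0 called at 7 dpci (median 0.22). Its summed level was 1450 to 2190 CPM at 1 dpci and 626 to 1150 CPM at 7 dpci, and the groups did not overlap. This compares with 586 to 1070 CPM before injury.

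The lumenal chaperone gene hspa5 (ENSDARG00000103846; chromosome 5, 2713779 to 2721686), which encodes BiP, was at 172 to 343 CPM at 1 dpci (median 235) and at 45.6 to 148 CPM at 7 dpci (median 74.8). No 7 dpci library reached the lowest 1 dpci library, and the fall was 3.07-fold (log2 fold change -1.62 ± 0.16, adjusted p = 2e-10 in edgeR's quasi-likelihood test). The calcium-binding chaperone calr3a fell from a median of 274 to 95.4 CPM (log2 fold change -1.40), hsp90b1 from 137 to 43.5 CPM (-1.59) and the large chaperone hyou1 from 41.1 to 13.6 CPM (-1.70), each without overlap. The transcription factor genes of the same response moved less. For atf6 the log2 fold change was -0.90, for xbp1 -0.92, for atf4a -0.10 and for ddit3 0.43, and none of these was called.

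Among all tested genes, 15 were higher (0.0917%) and 41 lower (0.251%) in every 7 dpci than in every 1 dpci library, and 14 and 31 of them were also called. The called genes that fell without overlap included, beside the chaperones, ddost and rpn1 of the oligosaccharyltransferase, the glucosidase mogs, the translocon-associated tram1 and rrbp1a of the rough ER. These were picked after their values were seen.

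Genes of inflammation fell in part. In the list of inflammatory cytokines and the STAT3 response 11 of 27 genes fell and 0 rose (median log2 fold change -0.84), 5 without the TL strain. The cytokine il11b was at 0.261 to 35.104 CPM at 1 dpci (median 2.93) and at 0 to 0.853 CPM at 7 dpci, where the median was 0. Its groups overlapped at the low end. The serum amyloid gene saa (log2 fold change -4.45), the hepcidin gene hamp (-4.83), the cytokine il1b (-2.45) and the prostaglandin synthase ptgs2a (-2.23) fell as well, while the feedback inhibitor socs3b (-1.74) and cebpb (-1.09) lost the call in some alternatives. For il1b, whose median at 1 dpci was 0.17 CPM, most libraries held few reads. Of 28 chemokine and receptor genes 5 fell and 1, ccl34b.1, rose (median -0.66). Leaving out each fish in turn gave 3 to 6 falls and 0 to 2 rises, with 3 falls without AB at 7 dpci replicate 5, SAT at 1 dpci replicate 36, TL at 1 dpci replicate 41 or 43, or KCL at 1 dpci replicate 64. Chemokine falls numbered 2 without the AB or the TL strain and 3 without the SAT strain. The falls included the neutrophil attractants cxcl8a and cxcl8b.1, but the call for cxcl8a was lost in 15 alternatives. Immediate early genes (5 of 34 fell, median -0.27, including the AP-1 subunits fosl1a and fosl2) and heat shock genes (5 of 26 fell, median -0.39) changed in a minority, and the heat shock count went down to 1 without the TL strain, to 2 without SAT at 1 dpci replicate 36 and to 3 without AB at 1 dpci replicate 21. Of 26 interferon-stimulated genes 2 fell, gbp1 and mxa (median -0.43). There were 5 without SAT at 7 dpci replicate 38, and 4 without SAT at 1 dpci replicate 36, TL at 1 dpci replicate 41 or KCL at 1 dpci replicate 64.

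Some genes of ribosome biogenesis fell as well. Of 64 ribosome biogenesis genes 15 fell and 0 rose, and 48 fell at an adjusted p below 0.05 without a fold limit (median log2 fold change -0.80). The nucleolar gene npm1a ran from 54 to 170 CPM at 1 dpci (median 90.8) and from 25.1 to 53.2 CPM at 7 dpci (median 33), beside a median of 35 CPM before injury. Every library at 7 dpci was below every one at 1 dpci. The pseudouridine synthase dkc1 (-1.39), nop58 (-1.17) and fibrillarin, fbl (-1.22), fell too. For dkc1 and nop58 the libraries of the stages overlapped in part. Of the structural proteins of the ribosome 0 of 90 were called (median 0.05). None of 35 proteasome genes was called, but 25 were lower at an adjusted p below 0.05 in edgeR's quasi-likelihood test (median -0.49).

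Of 24 actin remodelling genes 8 fell and 0 rose (median -0.77). Cytoplasmic actin, actb1, was at 434 to 782 CPM at 1 dpci (median 570) and at 118 to 256 CPM at 7 dpci (median 182), so that the groups were apart. The fall was 3.08-fold, and actb1 remained 1.53-fold above its uninjured level, below the limit for a call. The leukocyte plastin gene lcp1 (-2.55), profilin, pfn1 (-1.34), and the coronin coro1a (-1.59) fell too.

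Lysosomal hydrolases (8 of 26 fell, 5 without AB, median -0.77) and subunits of the vacuolar ATPase that acidifies the lysosome (8 of 25 fell, 4 without AB, median -0.59) gave the same direction. Among the latter atp6v1ab and atp6v0ca did not overlap between stages, and atp6v0ca went from a median of 176 to 80.1 CPM. The cathepsin ctss2.1 went from a median of 34.4 CPM at 1 dpci to 4.93 CPM at 7 dpci and remained called above the uninjured level of 2.07 CPM. For ctsba the log2 fold change was -1.81 over the strains but 0.08 in KCL. In TL ctsba was barely detected, with 0.734 to 1.28 CPM at 1 dpci and 0 to 0.293 CPM at 7 dpci.

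Some markers of phagocytes fell beside these lists. Of 21 macrophage markers tested 9 fell and 2 rose (median -1.12), and their summed level was 317 to 1880 CPM at 1 dpci (median 819), 295 to 1020 CPM at 7 dpci (median 514) and 148 to 1810 CPM before injury (median 258). These ranges overlapped. Those that fell included the progranulin gene grn1 (from a median of 275 to 46 CPM), mfap4 (18.2 to 2.43 CPM), apoeb, marco, spi1b and slc7a7. Those that rose were cd74a and cd74b, the invariant chain genes of antigen presentation. By strain the macrophage median was -1.12 in AB, -0.58 in KCL, 0.01 in SAT, -1.08 in TL and -1.32 in WIK. Of 9 neutrophil markers 3 fell (mpx, lect2l and scpp8), with a summed median of 44.3 CPM at 1 dpci and 21.7 CPM at 7 dpci. The neutrophil median by strain was -2.88 in AB, -1.21 in KCL, -0.82 in SAT, -2.83 in TL and -0.15 in WIK. The highest neutrophil sum, 174 CPM, was at 7 dpci in WIK replicate 60. The lists share ctss2.1 and lgmn with the lysosomal list, and their part in the other falls was not tested.

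**Figure D3:**
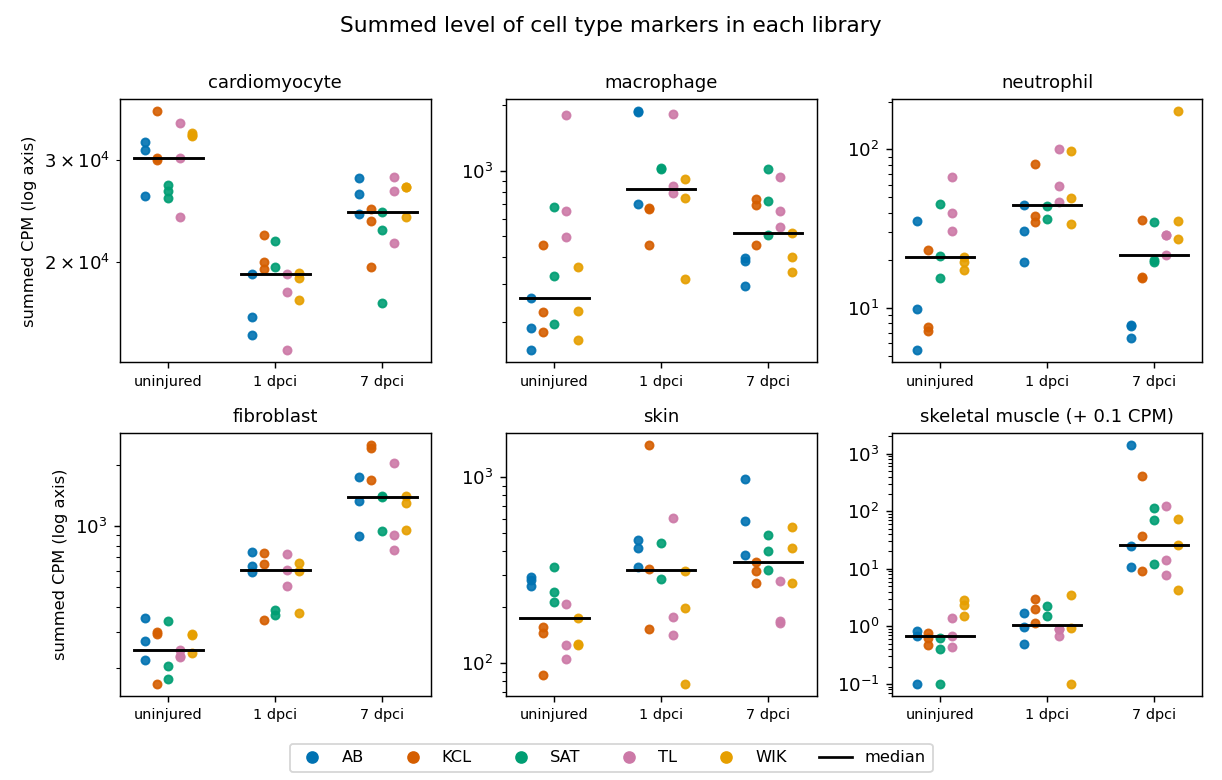
Each point is the summed CPM of 1 marker list in 1 ventricle on a log axis, coloured by strain, with the median of each stage as a bar, and 0.1 CPM was added for skeletal muscle. Macrophage and neutrophil sums had their highest median at 1 dpci, with overlap. The fibroblast sum was highest at 7 dpci without overlap with 1 dpci, the cardiomyocyte sum was lowest at 1 dpci, and the skeletal muscle sum was above 4 CPM only at 7 dpci.

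Several genes that had dropped at 1 dpci were back at 7 dpci. The retinol transporter gene rbp4 (ENSDARG00000101199; chromosome 12, 5115929 to 5120339) was at 13.3 to 38 CPM at 1 dpci (median 22.1) and at 84.1 to 260 CPM at 7 dpci (median 136), beside a median of 139 CPM in uninjured ventricles. The libraries of 1 and 7 dpci did not overlap. The rise was 5.92-fold (log2 fold change 2.57 ± 0.20, adjusted p = 1.83e-13 in edgeR's quasi-likelihood test). For cd74a the libraries ran from 4.61 to 103.9 CPM at 1 dpci (median 27.1) and from 85.7 to 552 CPM at 7 dpci (median 170), with a median of 98.9 CPM before injury. Its groups touched at the edge, and the rise was 6.87-fold.

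The matrix gene dpt (dermatopontin) went past its starting level. It was at 0 to 3.47 CPM at 1 dpci and 7.27 to 25.2 CPM at 7 dpci, without overlap (log2 fold change 2.82), and was called higher at 7 dpci than in uninjured ventricles. The microfibril gene mfap5 went from a median of 4.97 to 21.6 CPM (log2 fold change 2.06) and the metalloprotease inhibitor timp4.3 from 1.33 to 7.65 CPM (2.60), both without overlap. The uncharacterised si:ch211-106h4.12 had the largest log2 fold change of this class, 3.51.

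Genes of the extracellular matrix rose from 1 to 7 dpci. Of 39 collagen genes tested 16 rose and 0 fell (median log2 fold change 0.71), and 14 of 37 wound matrix glycoproteins rose and 2 fell (median 0.49). The rise with the lowest adjusted p of all genes was that of postnb, periostin, a matricellular protein of activated fibroblasts (ENSDARG00000104267; chromosome 15, 32710094 to 32741733). It was at 2.37 to 19.1 CPM at 1 dpci (median 9.96) and at 64 to 436 CPM at 7 dpci (median 216), beside a median of 14 CPM before injury. All 15 libraries at 7 dpci lay above all 14 at 1 dpci, and the rise was 19.1-fold (log2 fold change 4.26 ± 0.28, adjusted p = 7.78e-16 in edgeR's quasi-likelihood test).

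The fibrillin-binding mfap2 went from 0 to 1.73 CPM at 1 dpci to 4.08 to 28.7 CPM at 7 dpci (log2 fold change 3.93), also without overlap. The proteoglycan genes lum (3.92) and dcn rose too. For dcn the range was 15.2 to 47.5 CPM at 1 dpci and 43 to 127 CPM at 7 dpci, with overlap at the edge (1.44). The collagen-binding sparc went from a median of 32.1 to 86 CPM without overlap (1.58), the gelatinase mmp2 from 2.90 to 11 CPM (1.98) and the chaperone clu from 8.38 to 48.3 CPM (2.72).

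Some fibrillar collagen genes were already higher at 1 dpci. The gene col1a1a was called there against uninjured ventricles, and col1a2 was just below the limit (log2 fold change 0.97). For col1a2 the median was 47.6 CPM before injury, 98.6 CPM at 1 dpci and 243 CPM at 7 dpci. The ranges at 1 dpci (43.7 to 161 CPM) and 7 dpci (156 to 495 CPM) met only at the edge, and the log2 fold change between them was 1.50 ± 0.20. The genes col1a1a (1.43), col1a1b (1.35) and the minor fibrillar col11a1b (3.28) rose as well.

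The 2 wound matrix genes that fell were fn1a and vcanb, which encode fibronectin and versican of the early provisional matrix. The gene fn1a went from a median of 28.3 to 12.09 CPM (log2 fold change -1.49) and was still called above the uninjured median of 1.14 CPM, and vcanb went from 8.47 to 1.83 CPM (-2.44). Of 21 proteases and their inhibitors 5 rose and 5 fell (median -0.41), and both counts went down to 3 without single fish, among them TL at 7 dpci replicate 46. Those that rose included mmp2, mmp14a, mmp13b and timp4.3, while those that fell included adam8a, the inhibitor timp2b (-2.29) and the plasminogen activator plaua (-2.03). Among 21 collagen processing genes 4 rose (loxa, loxl2b, pcolcea and sparc), and plod3 fell at the limit (-1.0), a call lost in 28 alternatives (median 0.24).

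Markers of fibroblasts moved with the matrix. Of 13 tested 8 rose and 0 fell (median 1.29), of which 7 are collagen or matrix genes of the lists above and the other is the transcription factor gene tcf21. Their summed level was 167 to 352 CPM before injury, 343 to 748 CPM at 1 dpci and 761 to 2510 CPM at 7 dpci, and the last 2 ranges did not overlap. Of 12 epicardial markers tbx18 (15.3 to 33.7 CPM by the medians, log2 fold change 1.42), tcf21 (1.29) and sema3d (2.1) rose, whereas the retinoic acid synthase gene aldh1a2, an epicardial and endocardial injury marker, fell from a median of 66.7 to 35.3 CPM (-1.0). Of 9 smooth muscle markers tagln rose, from 9.16 to 32.4 CPM at 1 dpci (median 21.2) to 39.2 to 326 CPM at 7 dpci (median 109), without overlap.

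The largest rises were in genes of fast skeletal muscle. Among called genes with a mean of at least 10 CPM at 7 dpci and the same sign in 5 strains, 9 of the 10 with the largest increase were of this kind, among them the myosin light chain mylpfa, the parvalbumins pvalb1, pvalb2 and pvalb3, the myosin heavy chains myhz2 and myhc4, the troponin tnnc2, the calcium pump atp2a1l and the actin actc1b. The gene mylpfa was at 0 to 0.785 CPM at 1 dpci (median 0.0848) and at 1.38 to 570 CPM at 7 dpci (median 11.4), without overlap (fitted log2 fold change 8.06 ± 0.81, adjusted p = 2.05e-10 in edgeR's quasi-likelihood test). For pvalb2 it was 0 to 0.34 CPM and 0.275 to 143 CPM (7.82), and for pvalb1 0 to 1.36 CPM and 0.826 to 435 CPM (7.15). Without AB at 7 dpci replicate 24 the log2 fold changes were 6.53 for mylpfa, 6.98 for pvalb2 and 5.93 for pvalb1, and without the 4 libraries richest in skeletal muscle RNA, named next, they were 5.42, 5.75 and 4.88.

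Of 8 skeletal muscle markers tested 7 rose, 0 were called at 1 dpci against uninjured, and their summed level was 0 to 2.79 CPM before injury, 0 to 3.39 CPM at 1 dpci and 4.13 to 1430 CPM at 7 dpci (median 25.9). In AB at 7 dpci replicates 5, 24 and 27 were at 10.8, 1430 and 25.1 CPM. The tissue source of this RNA was not tested. Of the 15 libraries at 7 dpci 4 held more than 100 CPM, namely AB replicate 24 (1430 CPM), KCL replicate 67 (405 CPM), TL replicate 44 (122 CPM) and SAT replicate 39 (112 CPM). Without these 4 libraries 399 genes were higher and 536 lower at 7 than at 1 dpci, 425 early rises fell back, 122 early falls recovered and 97 genes rose late. The tenth gene, scpp7, was at 0 CPM in all 14 libraries at 1 dpci and reached 180 CPM in AB replicate 24 alone, with at most 1.48 CPM in the others, so no fold is given.

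Cardiac muscle genes changed by less. Of 45 cardiac sarcomere genes 7 rose and 0 fell, 4 without AB replicate 24, and 23 were higher at an adjusted p below 0.05 in edgeR's quasi-likelihood test (median log2 fold change 0.53). At 1 dpci against uninjured the same list had a median of -0.58, and at 7 dpci -0.05. The list includes actc1b, which moved with the skeletal muscle genes. The slow myosin heavy chain myh7 (ENSDARG00000079564; chromosome 2, 24252987 to 24270062), a fetal isoform of border zone cardiomyocytes in zebrafish, was at 10.2 to 173 CPM at 1 dpci (median 56.1) and at 123 to 1017 CPM at 7 dpci (median 301). The ranges overlapped in part, and the rise was 5.78-fold (log2 fold change 2.53 ± 0.28, adjusted p = 1.84e-09). Before injury myh7 was at 10.1 to 417 CPM (median 32.4), which overlapped both later stages, and by its calls it was a late rise. In TL it was at 86.1 to 417 CPM before injury, 120 to 173 CPM at 1 dpci and 294 to 683 CPM at 7 dpci.

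The myosin light chain myl7, a marker of all cardiomyocytes in zebrafish, went from a median of 3431 CPM at 1 dpci to 5049 CPM at 7 dpci, beside 7016 CPM before injury (log2 fold change 0.50, adjusted p = 1.53e-05 in edgeR's quasi-likelihood test), and tnnc1a had a log2 fold change of 0.76. The skeletal actin acta1b had one of 0.74. All 3 were below the 2-fold limit. In the border zone list of 24 genes myh7 rose and 2 fell, the stress gene ankrd1a (from a median of 40.8 to 9.42 CPM, still called above uninjured) and the natriuretic peptide nppc (-3.11), with a median of 0.20. Of 20 calcium and sodium handling genes 1 rose and 3 fell (median 0.25).

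Genes of oxidative phosphorylation were mostly higher at 7 than at 1 dpci by less than 2-fold. Of 87 nuclear genes of oxidative phosphorylation 64 were higher at an adjusted p below 0.05 and 0 lower, but only 2, cox4i2 and sdhda, passed the 2-fold limit (median log2 fold change 0.41). Both were low, with at most 9.8 CPM for cox4i2 and 5.54 CPM for sdhda at 1 or 7 dpci. In SAT and WIK sdhda was at 0 CPM in all libraries at 1 dpci. The list had a median of -0.54 at 1 dpci against uninjured and of -0.09 at 7 dpci. The 13 cardiomyocyte markers moved alongside, with medians of 0.41 from 1 to 7 dpci (8 higher at an adjusted p below 0.05), -0.89 at 1 dpci and -0.21 at 7 dpci against uninjured, and their part in the metabolic lists was not tested. By strain the median of the nuclear oxidative phosphorylation genes was 0.57 in AB, 0.29 in KCL, -0.13 in SAT, 0.67 in TL and 0.61 in WIK. SAT had only 2 fish at 1 dpci, and the time label of its replicate 38 at 7 dpci differed from the title. Among libraries at 7 dpci, replicate 38 had the lowest cardiomyocyte sum (17000 CPM) and the lowest share of mitochondrially encoded RNA (56.2%). The part of replicate 38 in the SAT medians here and below was not tested. All 13 mitochondrially encoded protein genes were higher at an adjusted p below 0.05, with a median of 0.54 and 0 past the limit. Of the 8 malate-aspartate shuttle genes 7 did so (median 0.49), and its mdh1ab had a log2 fold change of 0.52 with an adjusted p of 0.139 in edgeR's quasi-likelihood test. The shuttle's median by strain was -0.04 in SAT and 0.37 to 0.76 in the others. In AB, KCL, TL and WIK mdh1ab was higher in every fish at 7 dpci than in every fish at 1 dpci of its strain. In SAT mdh1ab was at 6.79 to 13.3 CPM before injury, 4.52 and 25.4 CPM at 1 dpci and 4.87 to 7.53 CPM at 7 dpci. The SAT range at 7 dpci thus overlapped that before injury. Uninjured fish of AB, TL and WIK were at 51.6 CPM or more. In uninjured KCL replicate 3 was at 6.97 CPM and the other fish at 29.5 CPM or more. The test of the difference among strains did not call mdh1ab.

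None of 21 genes of the citric acid cycle and pyruvate entry was called (median 0.33, 10 higher at an adjusted p below 0.05), and 1 of 23 fatty acid oxidation genes rose, acaa2 (median 0.25), a call lost in 18 alternatives. Without a fold limit 7 of the 23 were higher and 0 lower at an adjusted p below 0.05. At 1 and 7 dpci acaa2 was at 0 CPM in all SAT libraries and at most 0.785 CPM in KCL. In AB it ran from 9.24 to 16.9 CPM at 1 dpci and from 11.4 to 17.3 CPM at 7 dpci. Its stages were apart in TL (6.91 to 8.51 and 11.7 to 21.7 CPM) and WIK (0.17 to 9.52 and 14.3 to 37.7 CPM). By strain the citric acid cycle median was -0.11 in SAT and 0.217 to 0.52 in the others. That of fatty acid oxidation was -0.22 in SAT and 0.115 to 0.446 in the others. Glycolysis had 3 of 29 genes called lower and 0 higher (median 0.24). Without a fold limit glycolysis had 8 genes higher and 4 lower at an adjusted p below 0.05. Its median by strain was 0.44 in AB, 0.07 in KCL, -0.44 in SAT, 0.51 in TL and 0.46 in WIK. The 3 genes called lower were the inducible hexokinase hk2 (from a median of 13.7 to 1.67 CPM), eno1b and eno2. At 1 dpci eno2 was at 3.46 to 8.03 CPM in AB, 6.4 CPM in SAT replicate 37 and 1.61 CPM or less elsewhere. The other hexokinase gene, hk1, had a log2 fold change of 0.17, and the 4 pyruvate dehydrogenase kinase genes had a median of 0.01, with 0.11 for pdk4. Of 7 creatine kinase genes ckmb rose (median 0.46), and 0 were called without the 4 libraries with the most skeletal muscle RNA.

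Genes of the cell cycle were higher at both stages after injury. Of 76 genes of DNA replication and mitosis 46 were higher at 1 dpci than in uninjured ventricles and 42 at 7 dpci, with medians of 1.63 and 1.75, and 2 were called between the stages, stmn1a and ENSDARG00000114670 (median 0.06). The strains differed in sign, with medians from 1 to 7 dpci of -0.45 in AB, 0.78 in KCL, -0.2 in SAT, -0.49 in TL and 0.28 in WIK. The replication clamp gene pcna was at 16.4 to 57.1 CPM at 1 dpci (median 25.7) and at 12.6 to 59.4 CPM at 7 dpci (median 26.5), beside a median of 11 CPM before injury. The 2 stages overlapped almost fully, with a log2 fold change of 0.06 (SE 0.18). Other sustained rises were anxa2a, a membrane-binding annexin, fn1b, a second fibronectin gene, and the growth factor gene mdka (medians of 19.8, 102 and 151 CPM in uninjured, 1 dpci and 7 dpci ventricles).

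Sustained falls were few. The actin-binding sarcomere gene lmod2a went from a median of 61.1 CPM before injury to 14.3 CPM at 1 dpci and 26.7 CPM at 7 dpci, and the transcription factor gene nfil3-5 from 19.9 to 5.33 and 5.09 CPM.

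**Figure D4:**
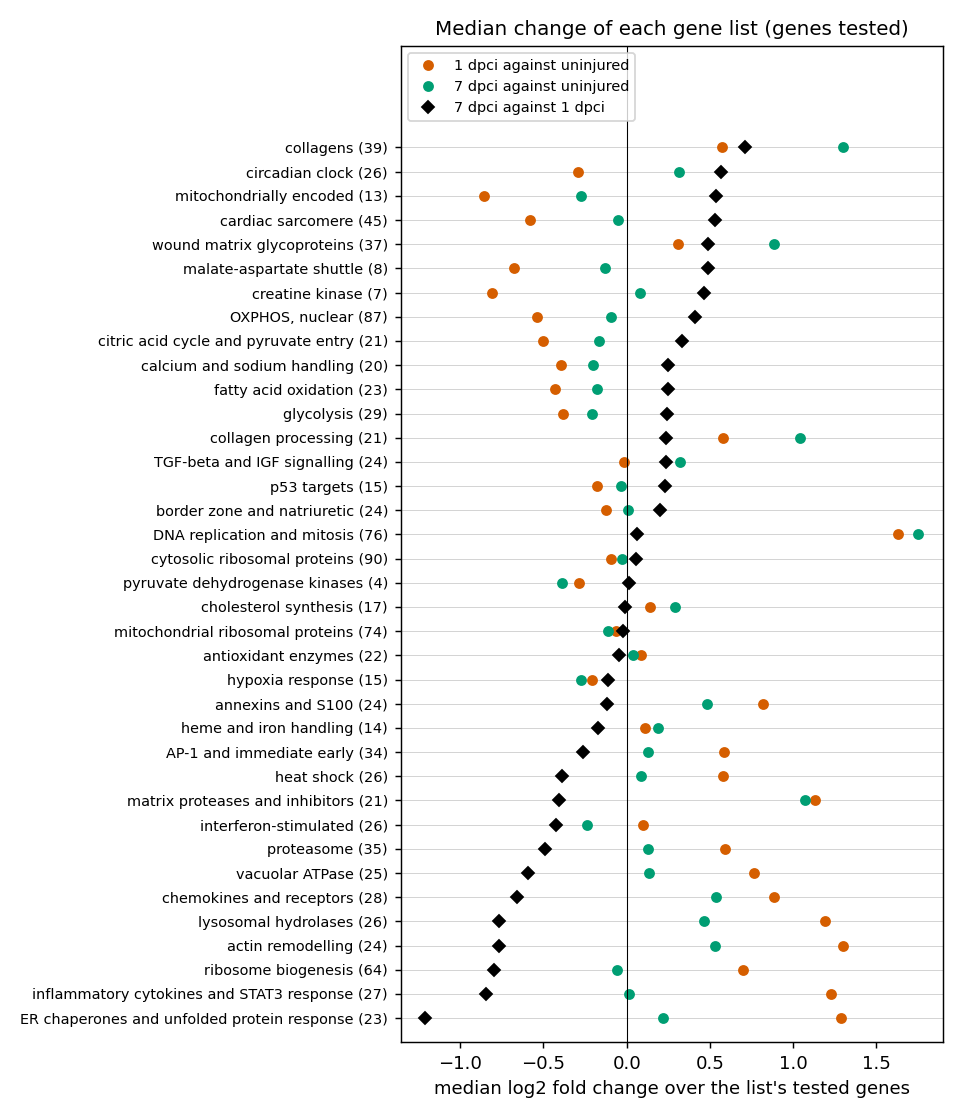
Each line is 1 gene list with the number of its genes tested in parentheses, and the x axis is the median log2 fold change of these genes for 1 dpci against uninjured (orange), 7 dpci against uninjured (green) and 7 against 1 dpci (black diamonds). The ER chaperone, inflammatory and ribosome biogenesis lists had high values at 1 dpci and values near 0 at 7 dpci, the collagens went further up from 1 to 7 dpci, and the replication list had like values at both stages.

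The remaining lists stand beside 3.06% of genes higher and 4.16% lower over all genes tested. Of 26 circadian clock genes 4 rose, among them ciarta, per1a, cry1b and dbpb, and arntl2 fell (median 0.57). The time of day of sampling was not given in the sources used here, and its part was not tested. Of 24 annexin and S100 genes 1 rose (median -0.12), of 14 heme and iron genes tfa rose (median -0.17), of 22 antioxidant genes prdx1 fell (median -0.05) and of 15 hypoxia genes 3 fell, ca9, igfbp1a and ndrg1a (median -0.11). The hypoxia count went down to 1 without SAT at 7 dpci replicate 38 or 39, and ca9, at 0.86 CPM or less in all libraries at 1 and 7 dpci, and igfbp1a lost their calls in 27 and 10 alternatives. Of 24 TGF-beta and IGF genes igfbp1a fell (median 0.24), of 15 p53 target genes fas fell (median 0.23), of 17 cholesterol synthesis genes insig1 rose (median -0.01), and 0 of 74 mitochondrial ribosomal protein genes were called (median -0.02). The calls of tfa, fas and the annexin gene anxa13l were lost in 17, 15 and 11 alternatives. At 1 and 7 dpci fas was at 2.57 CPM or less in all libraries. Among markers of other cell types 1 of 27 endothelial genes rose and 1 fell, 1 of 8 T and NK cell genes rose, 1 of 5 B cell genes fell, 1 of 5 liver genes rose, and 0 of 12 erythrocyte, 5 thrombocyte, 5 atrial and 6 skin genes were called. The skin sum was 77.5 to 1500 CPM at 1 dpci and 165 to 982 CPM at 7 dpci.

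Whether the shift differed among the 5 strains was tested for every gene. In edgeR's quasi-likelihood test of the 4 differences among strains 0 of 16356 genes had an adjusted p below 0.05, with a lowest adjusted p of 0.118, and 1262 genes (7.72%) had an unadjusted p below 0.05. The likelihood ratio test of DESeq2 gave 150 genes. With 2 or 3 fish per strain and stage, a difference between strains that was not called is not shown to be absent.

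The same comparison was made in fish that did not enter the fit, the 11 libraries of NA (Nadia) and TU (Tübingen) at 1 and 7 dpci, 3 per strain and stage with 2 for TU at 1 dpci. There 195 genes (1.40% of 13972 tested) were higher at 7 than at 1 dpci and 416 (2.98%) lower. Without TU at 1 dpci replicate 54, which lay nearest to uninjured ventricles, 303 genes were higher and 618 lower, and only 6 of the 11 libraries lay nearest to the stage in their title. All NA libraries at 7 dpci (replicates 31, 33 and 34) and TU at 7 dpci replicate 49 also lay nearest to uninjured ventricles. For 9 of the 11 the nearest strain was their own. The exceptions were NA at 1 dpci replicate 28, nearest to SAT, and TU at 1 dpci replicate 48, nearest to NA, and the time label of TU at 7 dpci replicate 49 differed from its title. Of the 501 genes that rose in the 5 strains 416 were tested in NA and TU, 360 of them (86.5%) had the same sign, 85 (20.4%) were called in the same direction and 0 in the other. Of the 681 that fell 627 were tested, 590 (94.1%) had the same sign, 233 (37.2%) were called in the same direction and 0 in the other. Over all genes tested in both fits, 50.3% had a higher and 49.7% a lower estimate at 7 dpci in NA and TU. The median log2 fold change of the rises was 1.48 in the 5 strains and 1.04 in NA and TU, and that of the falls was -1.41 and -1.43. Across the 1043 called genes tested in both, the log2 fold changes had a Pearson r of 0.829, and across 3479 genes of at least 10 CPM one of 0.821. These values are given without a p, because genes of 1 library are not replicates.

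The genes described above had the following values in NA and TU. The gene postnb ran from 2.77 to 13.5 CPM at 1 dpci and from 50.4 to 208 CPM at 7 dpci, hspa5 from 109 to 344 CPM and from 43 to 128 CPM, and actb1 from 245 to 844 CPM and from 104.5 to 285 CPM. For postnb the groups did not overlap, and for the other genes they overlapped in part. All 3 were called in edgeR's quasi-likelihood test, as were adam8a, rbp4, dpt, myh7 and mylpfa, whereas cd74a was not (log2 fold change 1.30, adjusted p = 0.086). Of the lists, 11 of 23 ER chaperone genes, 14 of 26 lysosomal genes and 10 of 21 macrophage markers fell, and 7 of 26 collagens rose. Ribosome biogenesis had 0 of 62 genes called (median -0.20), and the replication list had 5 of 71 lower (median -1.13). Whether these lists differed between NA and TU and the 5 strains was not tested.

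**Figure D5:**
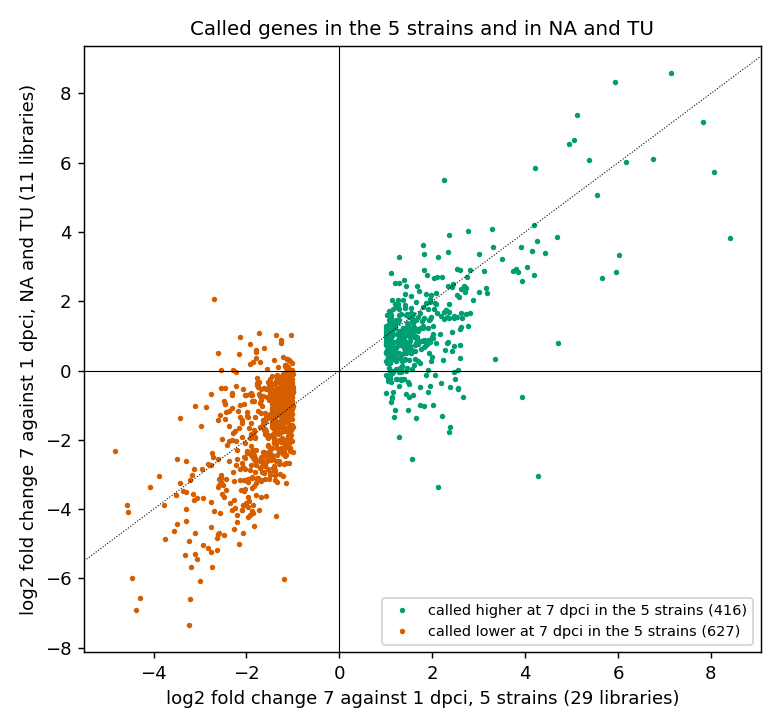
Each point is a gene called in the 5 strains, with its log2 fold change of 7 against 1 dpci in the 5 strains (29 libraries) on the x axis and in NA and TU (11 libraries) on the y axis, and the dotted line marks equal change. Of the called rises (green) 86.5% and of the called falls (orange) 94.1% had the same sign in NA and TU, beside 50.3% higher and 49.7% lower over all genes tested in both.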

How the data were processed

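RNA of single ventricles was sequenced from the 3′ end (QuantSeq). Per the labels and methods, the authors demultiplexed reads with bcl2fastq 2.20.0, trimmed them with Trim Galore 0.6.4, and aligned and counted them with STAR 2.7.6a on GRCz11. The deposited counts per gene (32520 genes) are not normalised, and a count from the 3′ end does not grow with gene length. The table of log2 values that the authors deposited was not used here.

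Counts of the 44 libraries (5 strains, 3 stages) were fitted in R 4.3.3 with edgeR 4.0.16 (TMM, trended dispersion, strain plus stage, quasi-likelihood F-test). Genes that reached 1 CPM in 1 or more libraries entered, and p-values were adjusted by Benjamini-Hochberg over all 16356 genes tested. A call needed an adjusted p below 0.05 and more than 2-fold. CPM values use TMM library sizes. Libraries were taken as separate fish. Among the 44, no 2 of the same strain and stage agreed within sampling noise, and other pairs were not compared. The difference among strains was tested in a fit with 1 mean per strain and stage, and NA and TU were fitted on their own. The authors' tests used DESeq2 with RUVg, which was not run here. Alternatives here were DESeq2 1.42.0 without a factor, and edgeR with 1 factor of unwanted variation. That factor was the first singular vector of centred log2 CPM over the 8178 genes with a coefficient of variation below the median. The fitting was tested on simulated data.

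Named genes were, by rule, the 10 largest changes in each direction with the same sign in 5 strains and at least 10 CPM, the 5 largest of each class, up to 4 called members of each list by level, and genes the study names. For skeletal actin the study's text names acta1 and acta1a, and acta1b was taken here. Further genes were chosen after their values were seen, and 2 genes that the rule names are not reported here. The gene lists, classes and comparison were chosen with earlier results of these data known. Gene models whose symbol is shared appear by identifier. The planned counts of promoter motifs were not run, since the reference used here holds no promoter sequence.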

Additional observations from a re-analysis of the deposited data

Results flagged for a closer look

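The hexokinase gene hk1 had a shared log2 fold change of 0.168 from 1 to 7 dpci, but its strains moved in opposite directions without overlap of the fish. All fish of AB and of WIK were higher at 7 dpci (log2 fold change 0.77 and 0.69) and all fish of SAT were lower (-0.59), while KCL (-0.07) and TL (-0.03) were near 0. The test of the difference among strains did not pass (adjusted p = 0.53 in edgeR's quasi-likelihood test).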

How the results depend on the processing

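Choices were changed 1 at a time, with these exceptions. Leaving out libraries, or normalising without mitochondrial genes, also changed which genes passed the filter. The fits with 1 mean per strain and stage over 61 libraries changed the model, the libraries and the genes that passed. DESeq2 changed normalisation, dispersion and test together, and its likelihood ratio test also left out the uninjured libraries. Of the alternatives, 5 (libraries with over 100 CPM of skeletal muscle markers left out, DESeq2's likelihood ratio test, left-out fish for the strain test and for NA and TU, and no filter in NA and TU) were chosen after seeing the data. The counts of calls, classes and strain differences stayed within 1.5 times in 846 cases and moved further in 79. No paired analysis was possible because each ventricle was taken at 1 stage only, so the stages are different fish.

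With 1 factor of unwanted variation 69 genes were higher and 15 lower at 7 than at 1 dpci, 33 higher and 23 lower at 1 dpci than uninjured, 8 early rises fell back (4 to the uninjured level), 13 early falls recovered (9 to it), 27 genes rose late, 0 fell late, 11 rises and 2 falls were sustained. The factor differed between stages. With no fold limit the counts were 1454 and 1657, 2510 and 1811, 239 lower at 7 dpci than uninjured, 1300 (1146), 919 (833), 23 late falls and 114 sustained falls. With a 1.5-fold limit they were 989 and 1245, 1225 lower at 1 dpci, 89 lower at 7 dpci, 959 (824), 504 (467), 7 late falls and 51 sustained falls. Late falls numbered 1 with 1 mean per strain and stage (5 strains or all 61 libraries), with DESeq2, without mitochondrial genes, with 1 CPM in 14 libraries, without libraries whose labels disagree and without TL. Sustained falls numbered 18 over 61 libraries, 24 without a filter, 7 without AB, 22 without SAT, 19 without TL, 6 without WIK and 23 without the skeletal muscle libraries. Without a filter 49 genes were lower at 7 dpci than uninjured and 7 fell late, and in NA and TU 325 were higher and 654 lower. With 1 CPM in 14 libraries 76 genes rose late. Without KCL 312 genes were higher at 7 dpci than uninjured and 133 rises were sustained, without WIK 143, and without TL 239 early rises were back at the uninjured level. Without the skeletal muscle libraries 36 genes were lower at 7 dpci than uninjured. The strain difference gave 539 genes without a filter, 2 over 61 libraries and 150 with DESeq2. The cause was not tested.

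Leaving out each fish gave 453 to 547 higher and 615 to 781 lower genes at 7 than at 1 dpci, 1332 to 1525 and 395 to 497 at 1 dpci against uninjured, 437 to 596 and 17 to 33 at 7 dpci against uninjured, 482 to 581 early rises that fell back (341 to 486 to the uninjured level), 131 to 184 recovered falls (120 to 170), 102 to 128 late rises, 1 to 7 late falls, 198 to 265 sustained rises, 7 to 17 sustained falls, 0 to 3 genes for the strain difference, and 146 to 303 and 295 to 618 in NA and TU.

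Of the named genes, 16 turned direction with the factor (log2 fold change): fosl2 0.34, junba 1.14, cebpb 1.03, socs3b 1.12, gbp1 0.66, hsp70l 1.69, pfn1 0.037, myh9a 0.24, ENSDARG00000114451 1.73, ca9 1.32, cox4i2 -0.15, hk2 0.24, kcnh6a 0.40, myl7 -0.076, mdh1ab -0.11 and pdk4 -0.23. Neither pdk4 nor pcna was called, and pdk4 was also -0.00127 with no strain term and -0.076 without WIK. For pcna it was -0.092 without KCL and ran from -0.053 to 0.14 without 1 fish, with -0.018, -0.0074 and -0.0013 among these values.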
